A study of Mus musculus with 6 samples.

Results

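The Sprouty genes Spry1, Spry2 and Spry4, the Spred genes Spred1, Spred2 and Spred3, and Errfi1 encode inhibitors that act on the signalling chain upstream of the kinase ERK. These 7 genes were taken by symbol from a table of 38293 mouse genes, and all 7 passed the filter on low counts, as did 14642 genes in all. They were measured by RNA-seq in wild type primary cortical neurons stimulated with NMDA (3 libraries) and in the same kind of culture left untreated (control, 3 libraries). The neurons came from Swiss-Webster embryos at embryonic day 16 and were used on day 13 in vitro. Stimulated cultures received 50 µM NMDA, an agonist of one class of glutamate receptors, for 10 minutes, and recovered for 50 minutes without it. The growth protocol shared by the samples also describes etoposide, but no library used here carries that label. The extraction protocol names 2 biological replicates although 3 samples are listed for each group; the spread behind every p-value is therefore that between samples, and some of it may be technical.

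Growth factor receptors, and calcium entering through NMDA receptors, switch on Ras, which starts the kinase chain Raf, MEK and ERK; ERK then drives transcription of rapid response genes. Sprouty proteins are induced by this chain and dampen it at the level of Ras and Raf, a classical negative feedback loop. Spred proteins share the cysteine-rich Sprouty domain at their C terminus, carry an EVH1 domain at the other end, and bring the Ras inactivator neurofibromin (Nf1) to the membrane. Errfi1, also called Mig6, binds the kinase domain of the EGF receptor and its relatives and blocks it.

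The stretches upstream of the start sites of Spry1, Spry2 and Errfi1 are shown because edgeR called these genes higher in at least 1 of its fits, with or without pairing. Each is the 250 bases before a RefSeq start site (build GRCm38.p6), 5′ to 3′ on the strand of the gene, with any match to the motifs named here in capitals. Spry1 is at chr3:37639697-37639946 on the plus strand, Spry2 at chr14:105896820-105897069 on the minus strand and the Errfi1 window at chr4:150854820-150855069 on the plus strand, which is the second of its 2 RefSeq start sites.
Spry1: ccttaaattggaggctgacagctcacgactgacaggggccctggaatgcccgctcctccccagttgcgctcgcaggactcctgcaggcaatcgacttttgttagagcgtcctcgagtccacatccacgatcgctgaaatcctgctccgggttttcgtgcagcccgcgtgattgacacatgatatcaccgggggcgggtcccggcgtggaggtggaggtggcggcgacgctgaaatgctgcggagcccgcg
Spry2: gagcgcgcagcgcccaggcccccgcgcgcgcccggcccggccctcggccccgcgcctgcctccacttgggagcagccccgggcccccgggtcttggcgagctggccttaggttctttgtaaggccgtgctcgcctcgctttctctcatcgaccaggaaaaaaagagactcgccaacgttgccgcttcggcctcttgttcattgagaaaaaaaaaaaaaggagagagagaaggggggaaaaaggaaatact
Errfi1: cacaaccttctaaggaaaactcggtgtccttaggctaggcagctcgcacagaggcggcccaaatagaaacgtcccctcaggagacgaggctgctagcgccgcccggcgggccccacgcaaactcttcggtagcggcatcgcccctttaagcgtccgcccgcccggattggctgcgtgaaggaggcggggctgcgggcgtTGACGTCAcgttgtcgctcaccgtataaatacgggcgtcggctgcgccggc
Both strands were searched for the cyclic AMP response element TGACGTCA, its core TGACG, the AP-1 site TGANTCA, the ETS core CCGGAA, the EGR site GCGNGGGCG and the CArG box bound by SRF. The full response element is palindromic and always holds the core. The Errfi1 window held the full element, whose last base lies 44 bases before the start site, and no other match apart from the core within it. Of 32851 mouse windows of this length, 1.55% held the full element and 17.8% the core. Neither Sprouty window shown held any of the 6 motifs, while the Spred2 window held the core alone; the windows of Spred1 and Spred3 and the first Errfi1 window held none. The shares of all windows were 6.75% for the AP-1 site, 12% for the ETS core, 4.7% for the EGR site and 1.47% for the CArG box. A match describes letters and shows no binding, and its absence concerns this window alone. Windows of 6 of the 7 genes were used here. None was used for Spry4, so nothing is said of its motifs.

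Libraries held 15417234 to 18606264 counted reads in the NMDA group and 17860691 to 19183999 in the control group. Levels are given as CPM, counts scaled to a common library size with TMM factors, and changes as the log2 of NMDA over control from edgeR with its standard error (SE). A gene was called at a Benjamini-Hochberg adjusted p under 0.05 over all 14642 genes, which 55 genes (0.376%) met with higher and 8 (0.0546%) with lower levels after NMDA. A fit with replicate number added as a block compares NMDA and control libraries of the same number. It called 828 genes (5.65%) higher and 1223 (8.35%) lower, so a call within pairs is far commoner. Neuron markers were abundant in all libraries, with 6 general neuron genes summing to 5441 to 6351 CPM in NMDA and 5646 to 6236 CPM in control libraries. Astrocytes were also present: 9 marker genes, none of them at 0, summed to 2337 to 3565 CPM in NMDA and 2163 to 2834 CPM in control libraries. Of these 9, none was called without the block and 7 rose within pairs, with mean log2 differences of 0.19, 0.38 and 0.28 in pairs 1, 2 and 3. Excitatory neuron markers summed to 951 to 1141 CPM in NMDA and 1121 to 1253 CPM in control libraries. Inhibitory neuron markers summed to 593 to 635 CPM in NMDA and 542 to 580 CPM in control libraries, without overlap. Of these 7 inhibitory markers, none was called without the block and 1 rose within pairs. The 6 markers of progenitors and cycling cells, of which 3 rose within pairs, summed to 868 to 1568 CPM in NMDA and 784 to 1174 CPM in control libraries. Oligodendrocyte precursor markers summed to 617 to 878 CPM in NMDA and 506 to 886 CPM in control libraries. Oligodendrocyte markers summed to 39.9 to 168 CPM in NMDA and 36.9 to 193 CPM in control libraries. For fibroblasts and mural cells the sums were 88.9 to 148 CPM in NMDA and 74.6 to 102 CPM in control libraries. Microglial and endothelial markers were near 0, with sums of at most 4.45 CPM in any library and Cldn5 at 0 in all. The part of these cell types in the results on the 7 genes was not tested, and in bulk RNA more cells of a type and more RNA per cell cannot be told apart.

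Of the 7 genes, Spry2 and Spry4 rose after NMDA and none fell, beside 0.376% of all tested genes called higher and 0.0546% lower. Within pairs Spry1 and Errfi1 rose as well, to about 1.62 and 1.48 times the control level, and again none fell. That fit called 5.65% of all tested genes higher and 8.35% lower. The 3 Spred genes were not called in either fit, with changes between -0.23 and 0.21. The median log2 change of the 7 genes was 0.56, beside -0.0054 over all tested genes. In 5 of the 7 every NMDA library lay above every control library, a separation that 8.18% of all tested genes showed.

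**Figure D1:**
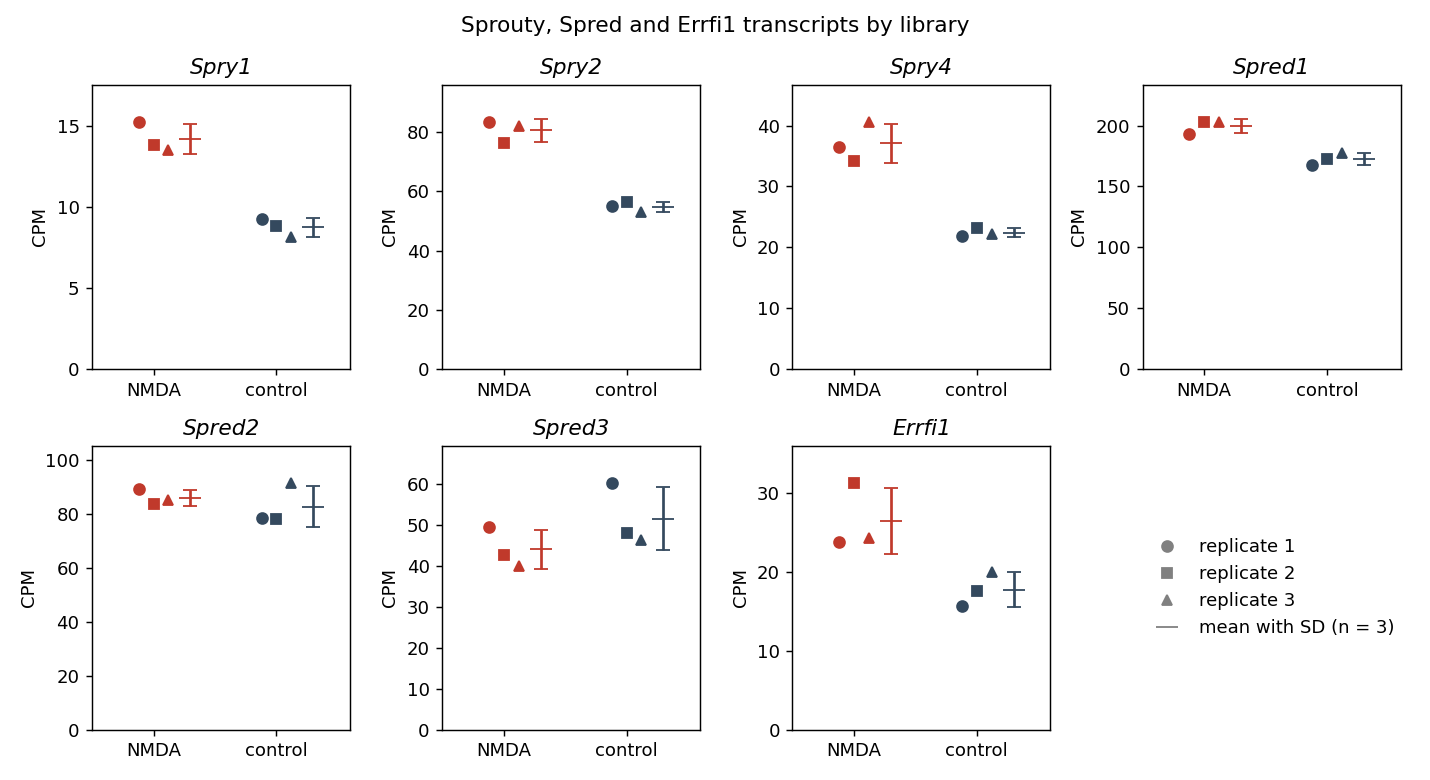
CPM of each gene (vertical axes, each starting at 0) in the 3 NMDA and 3 control libraries, with the replicate number as the symbol and the group mean with its SD (n = 3) to the right of the points. The NMDA points lie above all control points for Spry1, Spry2, Spry4, Spred1 and Errfi1, and the groups overlap for Spred2 and Spred3.

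Spry4, whose protein can inhibit the activation of Raf, was at 36.5, 34.2 and 40.6 CPM in NMDA replicates 1, 2 and 3, against 21.8, 23.2 and 22.2 CPM in control replicates 1, 2 and 3. The lowest NMDA library exceeded the highest control by a wide margin, and the controls lay close together. Its level rose 1.66-fold (log2 0.73 ± 0.10 SE, 95% interval 0.50 to 0.96, edgeR adjusted p = 0.014). The gene (ENSMUSG00000024427) occupies 15169 bases of chromosome 18 from 38586247 to 38601415 on GRCm38, on the minus strand.

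Spry2, which binds the ubiquitin ligase Cbl and is the Sprouty gene with the highest count here, was at 83.4, 76.2 and 82.2 CPM in NMDA replicates 1, 2 and 3, against 55.2, 56.3 and 53.0 CPM in control replicates 1, 2 and 3. The groups were far apart relative to their spread. It rose 1.47-fold (log2 0.56 ± 0.08 SE, 95% interval 0.37 to 0.74, edgeR adjusted p = 0.017). The gene (ENSMUSG00000022114) lies on chromosome 14 from 105891947 to 105896819, on the minus strand, and is the source of the second sequence shown above.

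Leaving out single libraries changed the calls of Spry4 and Spry2 without the block. Without control replicate 1, 2 or 3, or without NMDA replicate 3, neither was called (edgeR adjusted p 0.062, 0.087, 0.065 and 0.076 for Spry4, and 0.057, 0.10, 0.067 and 0.10 for Spry2), and Spry2 also lost its call without NMDA replicate 2 (0.060). Both stayed called without NMDA replicate 1 (edgeR adjusted p 0.021 for Spry4 and 0.032 for Spry2), and Spry4 without NMDA replicate 2 (0.036). Within pairs both were called whichever pair was left out. The block fit has 2 residual degrees of freedom, and fewer without a pair. Without 1 pair it called 335 to 1341 of all genes higher, so a call kept there says little about stability. The log2 changes themselves stayed between 0.67 and 0.78 for Spry4 and between 0.53 and 0.60 for Spry2 in the 6 fits without 1 library.

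Spry1, the least abundant of the 3 and a regulator of receptor signalling in kidney development in the mouse, was at 15.2, 13.8 and 13.5 CPM in NMDA replicates 1, 2 and 3, against 9.26, 8.78 and 8.12 CPM in control replicates 1, 2 and 3. These values rest on 227 to 253 reads per NMDA library and 154 to 171 per control library. The groups did not overlap, and the change (log2 0.70 ± 0.13 SE) was close to that of Spry4, but it was not called without the block (edgeR adjusted p = 0.065). Within pairs it was (0.70 ± 0.11, edgeR adjusted p = 0.00033). The differences in pairs 1, 2 and 3 were 0.71, 0.65 and 0.72, the most even of the 3 Sprouty genes. Spry1 (ENSMUSG00000037211, chromosome 3 from 37639947 to 37644598, plus strand) shares exonic sequence with an unverified transcript on the other strand, Gm42922, and the strand setting of the authors' counting is unknown here. The fourth Sprouty gene, Spry3, had no read in any of the 6 libraries.

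Errfi1 was at 23.8, 31.3 and 24.3 CPM in NMDA replicates 1, 2 and 3, against 15.7, 17.6 and 20.05 CPM in control replicates 1, 2 and 3. All NMDA libraries exceeded all controls, yet both groups were spread widely, and the difference was 0.60, 0.83 and 0.28 in pairs 1, 2 and 3. The change (log2 0.58 ± 0.14 SE) was not called without the block (edgeR adjusted p = 0.16), and it was within pairs (0.57 ± 0.11, edgeR adjusted p = 0.0013). Errfi1 (ENSMUSG00000028967) lies on chromosome 4 from 150853919 to 150868892, plus strand, and the response element shown above lies before its second start site.

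DESeq2 called the 3 Sprouty genes and Errfi1 without the block, beside 1.06% of all genes called higher, with adjusted p of 0.0029 for Spry1 and 0.026 for Errfi1. It called the same 4 with the block, beside 3.39% of all genes called higher and 3.62% lower.

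**Figure D2:**
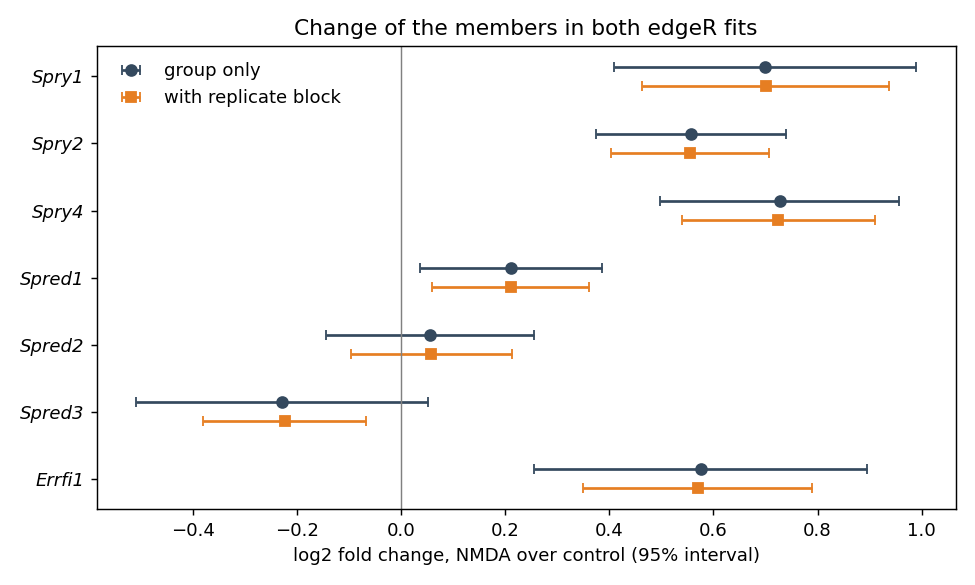
Log2 fold change of NMDA over control (horizontal axis) with its 95% interval for each gene in the edgeR fit with group only (circles) and with the replicate block (squares). The 3 Sprouty genes and Errfi1 lie between 0.56 and 0.73 in both fits, while the Spred genes lie between -0.23 and 0.21.

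Spred1, the family member mutated in the human disorder Legius syndrome, was the most abundant of the 7 by count. Its level was 194, 203 and 203 CPM in NMDA replicates 1, 2 and 3, against 168, 173 and 178 CPM in control replicates 1, 2 and 3. The NMDA libraries all lay above the controls, but by little, with a log2 change of 0.21 ± 0.08 SE that was not called (edgeR adjusted p = 0.29, and 0.056 within pairs). Within pairs it was called when both libraries of replicate 1 were left out (edgeR adjusted p = 0.032) and not when those of replicate 2 or 3 were (0.39 and 0.10).

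For Spred2, which acts like Spred1 on Ras and Raf, values were 89.1, 83.5 and 85.2 CPM in NMDA replicates 1, 2 and 3, against 78.3, 78.0 and 91.5 CPM in control replicates 1, 2 and 3. The groups overlapped because of control replicate 3. The log2 change was 0.06 ± 0.09 SE with a 95% interval of -0.14 to 0.26 (edgeR adjusted p = 0.82), which does not reach the change of Spry2, and within pairs the direction differed (0.19, 0.10 and -0.10 in pairs 1, 2 and 3).

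Spred3, which in the mouse lacks a working binding region for the receptor Kit, was the only one of the 7 with a lower mean after NMDA. It was at 49.4, 42.5 and 40.02 CPM in NMDA replicates 1, 2 and 3, against 60.2, 47.9 and 46.3 CPM in control replicates 1, 2 and 3. The groups overlapped, although the NMDA library was the lower in each pair (-0.29, -0.17 and -0.21 in pairs 1, 2 and 3). The log2 change of -0.23 ± 0.13 SE was not called (edgeR adjusted p = 0.45) or within pairs (-0.22 ± 0.07, edgeR adjusted p = 0.052, and 0.29 in DESeq2 with the block). Without control replicate 1 it was -0.10, and without NMDA replicate 3 it was -0.15. Spred3 shares 202 exonic bases with Ggn on the other strand. Counting pairs, 6 of the 7 genes moved one way in all 3 pairs, 5 of them higher, beside 22.5% of all tested genes higher and 25.7% lower in all 3.

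Dividing by exon length (GENCODE M21) allows the genes to be ranked. This length joins the exons of all annotated transcripts of a gene, 1 for Spry2 and 4 for Spred3. Ranks and sums per kb therefore depend on the annotation. In NMDA libraries the order was Spry2 (38.6 ± 1.86 CPM per kb of exon, SD, n = 3), Spred1 (29.5 ± 0.80), Spred2 (18.6 ± 0.62), Spry4 (7.80 ± 0.69), Errfi1 (7.39 ± 1.18), Spred3 (7.07 ± 0.78) and Spry1 (4.88 ± 0.32). In control libraries it was Spry2 (26.3 ± 0.82), Spred1 (25.5 ± 0.75), Spred2 (17.9 ± 1.67), Spred3 (8.28 ± 1.23), Errfi1 (4.96 ± 0.61), Spry4 (4.71 ± 0.15) and Spry1 (3.002 ± 0.20). Neighbours whose libraries overlapped were Spry4, Errfi1 and Spred3 after NMDA, and Spry2 with Spred1 and Errfi1 with Spry4 in controls. Spry2 thus stood clear of Spred1 in NMDA libraries only, and Spred3 stood clear of Errfi1 and Spry4 in control libraries only; no test was made between genes.

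**Figure D3:**
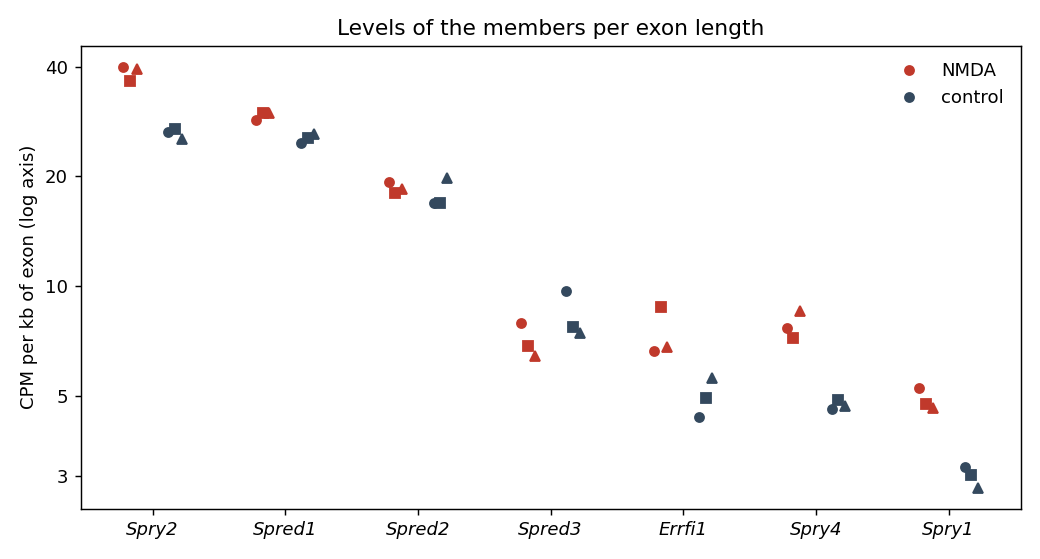
Level of each gene as CPM per kb of exon (vertical log axis) in the NMDA and control libraries, with circles, squares and triangles for replicates 1, 2 and 3. Spry2, Spred1 and Spred2 form an upper tier of at least 16.9 and the other 4 genes a lower one of at most 9.69 in every library.

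The sum of the 3 Sprouty genes per kb relative to that of the 3 Spred genes was 0.95, 0.88 and 0.96 in NMDA replicates 1, 2 and 3, against 0.67, 0.70 and 0.61 in control replicates 1, 2 and 3. Within the Sprouty sum Spry2 made up 74.9% to 75.6% in NMDA and 77.3% to 77.4% in control libraries. After these changes had been seen, the log2 ratio of the raw counts of each Sprouty gene to each Spred gene was also taken in every library, which does not depend on scaling between libraries. The 9 ratios reuse 6 genes and restate the changes given above, so they are a description without a test. All 9 were higher in every NMDA library than in any control, with mean differences from 0.34 for Spry2 to Spred1 to 0.95 for Spry4 to Spred3.

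Ratios inside the families were tested as well. Among Sprouty genes the log2 ratio of Spry2 to Spry4 was 1.12 ± 0.09 in NMDA and 1.29 ± 0.04 in control libraries (SD, n = 3; exact permutation p = 0.1, adjusted over 6 ratios p = 0.3), lower in all 3 pairs. These tests were two-sided and did not use the pairs. The smallest p that 3 against 3 libraries allow is 0.1, so no ratio could pass 0.05. That of Spry1 to Spry4 was -1.39 ± 0.18 in NMDA and -1.36 ± 0.11 in control libraries (exact permutation p = 0.8), with no common direction in pairs. Among Spred genes the ratio of Spred1 to Spred3 differed most, at 2.19 ± 0.19 in NMDA and 1.76 ± 0.25 in control libraries (exact permutation p = 0.1, adjusted p = 0.3), and was higher in all 3 pairs. None of the 6 adjusted p-values was under 0.3, which does not show that members of a family respond alike.

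**Figure D4:**
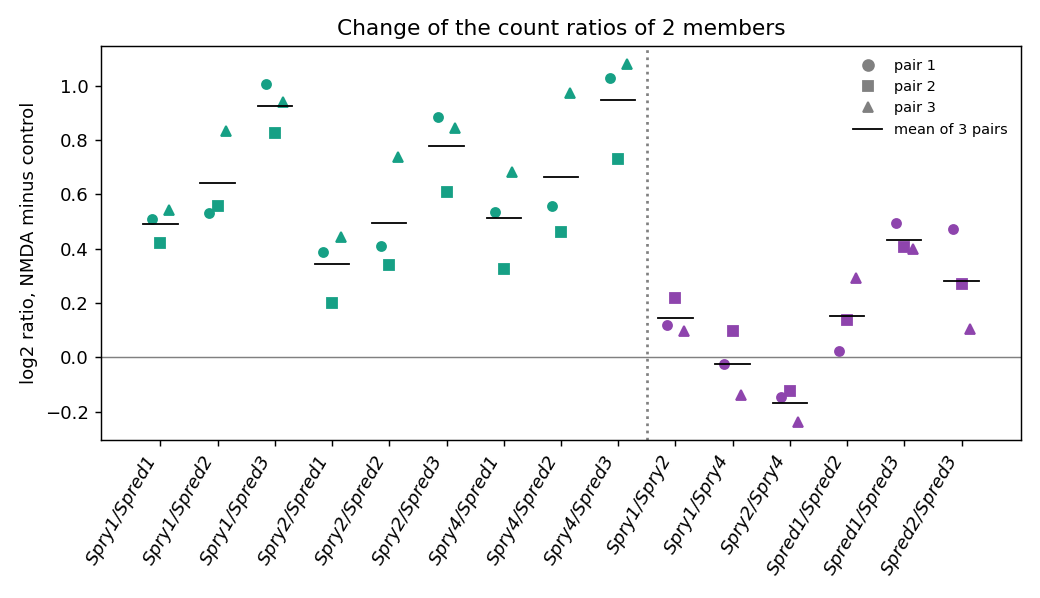
Difference of the log2 count ratio of 2 genes, NMDA minus control (vertical axis), in each pair of libraries of the same replicate number (symbols) and on average (lines). Left of the dotted line are the 9 ratios of a Sprouty to a Spred gene, all above 0 in all pairs; right of it are the 6 ratios within a family, which lie between -0.24 and 0.50.

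The 3 Sprouty genes are compact, with 2 separate exon stretches each and gene bodies of 4652, 4873 and 15169 bases for Spry1, Spry2 and Spry4. Errfi1 spans 14974 bases with 6 exon stretches. Spred1 and Spred2 span 60906 and 99652 bases with 7 and 8, and Spred3 has 7 within 11583 bases.

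Other signalling inhibitors were listed for comparison, with earlier results on these data known. Not all are specific to this chain, since some act mainly on other MAP kinases or on other pathways. The counts for this list are therefore not counts of ERK feedback alone. Of 16 tested, 3 rose and none fell without the block, beside 0.376% and 0.0546% of all genes. Within pairs 9 rose and 1 fell, beside 5.65% and 8.35% of all genes; the median change was 0.46. Dusp1, a nuclear MAP kinase phosphatase, was at 23.7 ± 6.19 CPM in NMDA and 7.65 ± 1.16 CPM in control libraries (log2 1.63 ± 0.20 SE, edgeR adjusted p = 0.0056). Dusp6, the ERK-specific phosphatase of the cytoplasm, rose by log2 1.02 ± 0.12 (edgeR adjusted p = 0.0056) and Dusp5, its nuclear counterpart, by 1.67 ± 0.24 (edgeR adjusted p = 0.016). Dusp6 lost its call without control replicate 2, and Dusp5 without control replicate 2 or NMDA replicate 2 or 3. Dusp4 (0.63) and Dusp14 (0.60) rose within pairs, by amounts near those of the Sprouty genes. Nf1, through which Spred proteins act, was at 122 ± 10.4 CPM in NMDA and 126 ± 16.96 CPM in control libraries and was not called in either fit.

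The signalling chain itself was listed in the same way. Of 64 tested genes for ligands, receptors, adaptors, Ras, the kinases and Sprouty or Spred partners, edgeR called none without the block, beside 0.376% of all genes called higher and 0.0546% lower (11 had an unadjusted p under 0.05, DESeq2 called 1 higher and 1 lower, and limma-voom called 0), with a median of 0.03. Unadjusted p-values under 0.05 were also common over all 14642 tested genes. By this p (edgeR without the block) Map2k1 ranked 2031 at 0.051, so somewhat fewer than 2031 genes lay under 0.05. Whether 11 of 64 exceeds that background was not tested. Within pairs 8 of the 64 rose and 5 fell, beside 5.65% and 8.35% of all genes. Falls were thus about as common in this list as over all genes. Among ligands Hbegf, which activates the EGF receptor that Errfi1 blocks, rose within pairs (33.1 ± 8.78 CPM in NMDA and 19.8 ± 0.47 CPM in control libraries, 0.72 ± 0.12, edgeR adjusted p = 0.00074), and Vegfa fell (-0.27). The call of Vegfa was lost without pair 2 or 3 (edgeR adjusted p 0.072 and 0.15) and in DESeq2 with the block (0.14). Hbegf was also called without the block when NMDA replicate 1 was left out (0.95, edgeR adjusted p = 0.0084). Receptors that rose within pairs were Fgfr2 (0.46), Fgfr1 (0.32) and Erbb2 (0.64). Of these, Fgfr1 and Fgfr2 were also called without the block when NMDA replicate 1 was left out. Over all genes that fit called 89 higher and 57 lower, against 55 and 8 with all libraries. No other fit without 1 library called Hbegf, Fgfr1 or Fgfr2. With all libraries, no block and no low-count filter, edgeR called Hbegf higher (adjusted p = 0.027). The same fit called Ksr2 (edgeR adjusted p = 0.0066) and Cbl (0.049) lower. Without pair 2, Erbb2 was at 0.34 (edgeR adjusted p = 0.42) and Fgfr1 at 0.26 (0.15), neither called, and DESeq2 with the block did not call Erbb2 (adjusted p = 0.22).

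In the adaptor and kinase group the scaffolds Ksr2 (-0.54) and Ksr1 (-0.29) and the calcium-regulated Ras activator Rasgrf2 (-0.40) fell within pairs, whereas the docking protein Gab1 (0.25), Map2k1 (0.30) and Mapk3 (0.22), the genes for MEK1 and ERK1, rose. Ksr1 and Mapk3 lost these calls whichever pair was left out, and Gab1 without pair 2 or 3 (edgeR adjusted p 0.28 and 0.14); DESeq2 with the block called none of these 3 (adjusted p 0.23, 0.11 and 0.15 for Ksr1, Mapk3 and Gab1). Of 8 partners of Sprouty and Spred proteins, Cbl fell within pairs (35.4 ± 3.57 CPM in NMDA and 47.7 ± 4.17 CPM in control libraries, -0.43 ± 0.08, edgeR adjusted p = 0.0015), and Siah2, a ubiquitin ligase that targets Spry2, rose (0.45) but was not called by DESeq2 with the block (adjusted p = 0.059).

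Genes known to be transcribed after ERK activation gave calls in one direction. Of 13 tested, Fos, Egr1 and Srf rose without the block, beside 0.376% of all genes higher, and 8 rose within pairs, beside 5.65%. None fell in either fit, beside 0.0546% and 8.35% of all genes, and the median was 0.40. Fos was at 116 ± 24.5 CPM in NMDA and 3.30 ± 0.57 CPM in control libraries, a change of log2 5.13 ± 0.19 that exceeds any among the 7 inhibitors. Srf, a transcription factor of immediate early genes, stood near Spry4 in size (0.73 ± 0.11, edgeR adjusted p = 0.016) and lost its call without any 1 control library and without NMDA replicate 2 or 3. Ccnd1 (0.48) and Myc (0.41) rose within pairs.

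**Figure D5:**
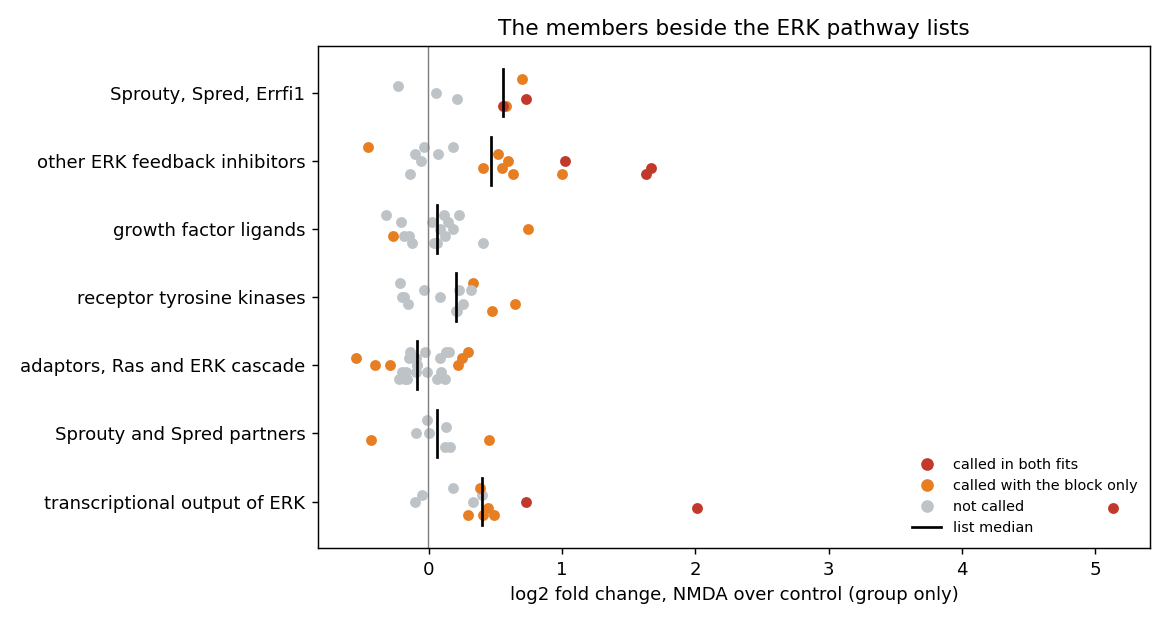
Log2 fold change of NMDA over control (horizontal axis, edgeR with group only) for every tested gene of each list, coloured by whether it was called in both fits, with the block only or in neither, with the list median as a black line and the median of all tested genes as a grey one. The 7 inhibitors (median 0.56) and the other feedback inhibitors (0.46) lie to the right of the adaptor and kinase genes (-0.09).

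Genes whose profile over the 6 libraries was nearest to the called members were found by the root mean square difference of log2 CPM, each gene centred on its own mean, among 12711 genes. For Spry2 they were Midn (0.06), Elmsan1 (0.07) and Ifrd1 (0.07), with changes of log2 0.56, 0.57 and 0.44. For Spry4 they were Fmo1 (0.07), Irf2bp2 (0.08) and Zfp36l2 (0.10), with changes of 0.78, 0.66 and 0.64. These distances describe 6 libraries that share the NMDA contrast and say nothing of shared control.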

How the data were processed

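RNA was measured in 3 NMDA and 3 control libraries. The authors deposited raw read counts per gene; per the submitters' processing notes, HTSeq, TopHat and Trimmomatic were used with GRCm38.p6 and mm10 as builds. For tool versions, strandedness and annotation release, no statement was found in the labels. From the counts, edgeR 4.0.16 (R 4.3.3) was run with its default filter (minimum count 10, total 15), TMM, robust quasi-likelihood fits and F tests on group, with Benjamini-Hochberg adjustment; an SE is the log2 change over the square root of F. Positions and exon lengths came from GENCODE M21 (GRCm38). Replicate numbers were taken as pairs because departures from the mean of the group had correlations of 0.54, 0.38 and 0.49 in libraries of the same number. The labels do not explain the numbers. These correlations come from the same counts as the block fit, so p-values within pairs hold only if that pairing is real. Replicates differed beyond sampling noise (chi-square per degree of freedom 8.27 to 58.7). Alternatives were the replicate block, other scalings and filters, DESeq2 1.42.0, limma-voom (limma 3.58.1) and leaving out libraries. Ratios within families used exact permutation tests (scipy 1.17.1). The scripts were tested on simulated counts. The 7 genes and all lists were chosen with earlier results of these data known; named list genes are at most 5 per list by p among those called in either fit, plus Nf1, Map2k1, Spry3 and 1 gene not reported here, and likeness was computed for called members. The ratios between families were added after the data were seen.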

Additional observations from a re-analysis of the deposited data

How the results depend on the processing

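The log2 changes of the 7 genes kept their direction under every alternative run (119 values); 95 kept their side of the threshold, 15 gained a call and 9 lost one, the last all in fits without 1 library. Genes called higher among the 7 numbered 2, and 4 with the replicate block, with DESeq2, with DESeq2 and the block, and with no low-count filter; they numbered 0 to 2 without 1 library and 4 to 5 in the block without 1 pair. For all genes the 55 higher and 8 lower became 828 and 1223 with the replicate block, 149 and 148 with DESeq2, 444 and 474 with DESeq2 and the block, and 130 and 130 with no filter, and 5 were lower with DESeq2 size factors in edgeR; without 1 library 19 to 89 were higher and 0 to 57 lower, and in the block without 1 pair 335 to 1341 (705 without pair 3) and 683 to 1366 (758 without pair 3). The other feedback inhibitors (3 higher, 0 lower) gave 9 and 1 with the replicate block, 6 higher with DESeq2, 7 with both and 5 with no filter, 1 to 4 without 1 library, and 8 to 9 higher and 0 to 1 lower in the block without 1 pair. The pathway list (0 and 0) gave 8 and 5 with the replicate block, 1 and 1 with DESeq2, 4 and 3 with both, 1 and 2 with no filter, 0 to 3 higher without 1 library, and 3 to 11 and 3 to 7 in the block without 1 pair. The output list (3 higher) gave 8 with the replicate block, 5 with DESeq2 and 7 with both, 2 to 4 without 1 library and 6 to 8 in the block without 1 pair. Only the ratio of Spry1 to Spry4 (-0.02) changed sign, to 0.080 without NMDA replicate 3 and 0.040 without control replicate 1, and ranged from -0.085 to 0.080. The cause of these shifts was not tested. Spry1, with under 300 reads in any library, had the fewest reads of the 7. The edgeR SE of its log2 change without the block was 0.13, against 0.14 for Errfi1. With the block it was 0.11 for both.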
